A study of Saccharomyces cerevisiae with 48 samples.

Results

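The 31 genes described here encode the enzymes that make ergosterol in budding yeast, the electron donors of those enzymes, the enzymes that esterify or acetylate sterols, and the transcription factors Upc2 and Ecm22. They were chosen by symbol from knowledge of the pathway, out of 6256 genes on the array, with earlier results of these data known. All 31 were found on the array, each by 2 spots of 1 probe, and all 31 were well above background on all 48 arrays, so none was lost to a filter on dim signal. The series measured total RNA of haploid MATa strains on Agilent arrays that carry 1 dye, Cy3. Alpha factor is the mating pheromone secreted by cells of the opposite mating type, and MATa cells respond to it. All cultures were grown in YPAD medium to an optical density of 0.6. Cultures were then shaken for 30 min at 30 °C, with alpha factor at 5 µM in the treated ones and without it in the untreated ones. The treated groups were 43 segregants from the cross YJM789 X S96 and the parental lines HS959 and S96. The untreated group held HS959, S96 and the segregant SEG8. Every strain was on 1 array per condition, each segregant is its own strain, and the sources used here do not say how HS959 relates to YJM789.

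Ergosterol is the main sterol of yeast membranes and takes the place that cholesterol has in animal cells. Its synthesis starts from acetyl-CoA in the mevalonate pathway and passes through farnesyl diphosphate to squalene and lanosterol. The synthesis ends in a series of demethylation, reduction, isomerisation and desaturation steps, some of which need oxygen, heme or both. Upc2 and Ecm22 are related zinc cluster proteins that bind sterol response elements in the promoters of many of these genes, and Hap1 is a heme-dependent activator of genes for respiration and of some sterol genes.

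A level is the log2 processed intensity of a gene's spots, set against the 75th percentile of that array, and a difference of levels is a log2 fold change. Array medians lay between 9804 and 23353 intensity units, and the share of gene spots well above background was between 94.02% (SEG14) and 99.9%. The MATa markers STE2, MFA1, MFA2, STE6, BAR1, ASG7 and AGA2 were all well above background, and 7 of these 7 and 5 of 5 pheromone-response markers rose with alpha factor. FUS1, needed for cell fusion, had levels of 1.89, 2.11 and 1.87 in treated HS959, S96 and SEG8, against -1.38, -1.50 and -1.80 in the same strains untreated. No strain was measured more than once per condition, so p-values rest on the spread between these arrays, which holds technical error and differences in response between strains. The number of arrays limits the precision. The parents' arrays shared slide 1 and the SEG8 pair was on slide 2, so slide and parent-or-SEG8 origin cannot be told apart in those 6 arrays.

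The first comparison asked how these genes changed when HS959, S96 and SEG8 were exposed to alpha factor. ERG24 and ERG28 rose, and 6 other sterol-step genes, both electron donors, ARE1, UPC2 and ATF2 fell. Of 31 genes, 2 rose (6.45%, against 15% of 6250 genes tested) and 11 fell (35.5%, against 20.5% of genes tested), at an adjusted p under 0.05 from limma. Together these were 13 genes, or 41.9%, against 35.6% of all genes. The median change over the 31 genes was -0.05, beside -0.04 over all genes tested. By role, 8 of 11 sterol-step genes, 2 of 2 electron donors, 1 of 2 esterification genes, 1 of 2 regulators and 1 of 2 acetylation genes were called, against 0 of 9 mevalonate-step genes and 0 of 3 genes of the steps that convert farnesyl diphosphate to lanosterol. The difference between roles was not tested.

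ERG24 (YNL280C, chromosome XIV) encodes the reductase that acts on the product of Erg11. Its levels were 2.11, 1.89 and 1.80 in treated HS959, S96 and SEG8, against 0.77, 0.79 and 0.47 in the same strains untreated. The treated and untreated arrays did not overlap, and the mean rise was 1.26 ± 0.13 (SD, n = 3 strains), 2.39-fold, with an adjusted p of 0.00248. The pheromone-response marker PRM1 carries the adjacent systematic name, YNL279W, and rose by 5.93. Whether the rises of ERG24 and PRM1 are related was not tested. ERG28 (YER044C, chromosome V) encodes the membrane scaffold that holds the demethylation enzymes together. Its levels were 2.07, 1.09 and 0.65 in treated HS959, S96 and SEG8, against 1.52, 0.51 and -0.22 untreated. Every strain rose although the arrays of different strains overlapped, because HS959 was high in both conditions. The mean rise was 0.67 ± 0.18 (SD, n = 3), with an adjusted p of 0.0111.

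Genes next to ERG24 in the pathway moved the other way. ERG11 (YHR007C, chromosome VIII) encodes the lanosterol demethylase, a cytochrome P450 and the target of azole drugs. It had levels of 1.15, 1.02 and 0.88 in treated HS959, S96 and SEG8, against 1.81, 1.94 and 1.44 untreated. The groups did not overlap, and ERG11 fell by 0.71 ± 0.19 (SD, n = 3; adjusted p = 0.0106). ERG25 (YGR060W, chromosome VII), the oxidase of the demethylation complex, had levels of 1.94, 1.40 and 1.59 in the treated arrays, against 2.66, 2.60 and 2.25 in the untreated arrays of HS959, S96 and SEG8. It fell by 0.86 ± 0.30 (SD, n = 3; adjusted p = 0.0127), with the treated arrays all below the untreated ones.

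ERG3 and ERG4, of the end of the pathway, also fell. ERG3 (YLR056W, chromosome XII) encodes the desaturase that needs cytochrome b5, and its levels were 1.23, 0.79 and 0.75 in treated HS959, S96 and SEG8, against 1.90, 2.05 and 1.62 untreated. ERG3 fell by 0.93 ± 0.30 (SD, n = 3; adjusted p = 0.0107), and its groups did not overlap. ERG4 (YGL012W, chromosome VII) encodes the last reductase, which completes ergosterol. Its levels were 0.51, 0.47 and 0.23 in treated HS959, S96 and SEG8, against 1.50, 1.80 and 1.13 untreated. ERG4 fell by 1.07 ± 0.22 (SD, n = 3; adjusted p = 0.00532), or to 0.476 of the untreated level.

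Smaller decreases lay in the middle of the sterol steps. ERG6 (YML008C, chromosome XIII), the sterol methyltransferase, had levels of 1.57, 1.33 and 1.12 in treated HS959, S96 and SEG8, against 1.83, 1.82 and 1.56 untreated. ERG6 fell by 0.40 ± 0.12 (SD, n = 3; adjusted p = 0.0274). ERG2 (YMR202W, chromosome XIII), the sterol isomerase, had levels of 1.90, 1.99 and 1.38 in treated HS959, S96 and SEG8, against 2.28, 2.22 and 1.68 untreated. ERG2 fell by 0.30 ± 0.07 (SD, n = 3; adjusted p = 0.0419). In both genes every strain was lower with alpha factor, while treated arrays of one strain overlapped untreated arrays of another. The other sterol-step genes ERG26, ERG27 and ERG5 had mean changes of 0.07, -0.15 and 0.04 and did not pass the test.

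Both electron donors fell. CYB5 (YNL111C, chromosome XIV) encodes cytochrome b5, and its levels were 0.59, -0.71 and -0.21 in treated HS959, S96 and SEG8, against 1.34, 0.39 and 0.57 untreated. CYB5 fell by 0.88 ± 0.19 (SD, n = 3, adjusted p = 0.00701), although treated HS959 was above untreated S96 and narrowly above untreated SEG8. NCP1 (YHR042W, chromosome VIII) encodes the reductase that feeds electrons to cytochrome P450 enzymes. Its levels were 0.54, 0.62 and 0.47 in treated HS959, S96 and SEG8, against 1.00, 1.10 and 0.83 untreated. NCP1 fell by 0.43 ± 0.07 (SD, n = 3; adjusted p = 0.0173), with no overlap of the groups.

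Among the enzymes that modify sterols, ATF2 and ARE1 fell. ATF2 (YGR177C, chromosome VII) encodes an acetyltransferase that acts on sterols and alcohols. Its levels were -2.61, -2.47 and -2.20 in treated HS959, S96 and SEG8, against -1.39, -0.92 and -0.91 untreated. ATF2 fell by 1.35 ± 0.17 (SD, n = 3; adjusted p = 0.0025), the largest absolute change among the 31 genes, and its groups did not overlap. SAY1, which encodes the sterol deacetylase that opposes Atf2, had a mean change of -0.08 and did not pass the test. ARE1 (YCR048W, chromosome III) encodes one of the paired acyltransferases that store sterols as esters, and its levels were -2.35, -1.86 and -1.96 in treated HS959, S96 and SEG8, against -1.35, -0.74 and -1.35 untreated. ARE1 fell by 0.91 ± 0.26 (SD, n = 3; adjusted p = 0.00962), with no overlap. Its paralog ARE2 had changes of 0.07, -0.41 and 0.28 in HS959, S96 and SEG8, with no common direction. Neither ATF2 against SAY1 nor ARE1 against ARE2 was tested.

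The paralogous regulators were measured at low levels. UPC2 (YDR213W, chromosome IV) had levels of -4.15, -2.81 and -4.02 in treated HS959, S96 and SEG8, against -3.63, -2.53 and -3.49 untreated. UPC2 fell by 0.44 ± 0.14 (SD, n = 3; adjusted p = 0.0243), and the higher level of S96 made the groups overlap. ECM22 (YLR228C, chromosome XII) had changes of 0.20, 0.28 and 0.42 in HS959, S96 and SEG8, with a mean of 0.30 ± 0.11 (SD, n = 3). At an adjusted p of 0.0524 it did not pass the test, but it did with quantile normalization and with scaling to the median of each array. The difference between the changes of UPC2 and ECM22 was not tested.

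None of the 9 mevalonate-step genes passed the limma test, and 1 of 9 (MVD1) had an unadjusted p under 0.05, against 0 of the 3 squalene-step genes. The 9 genes are ERG10 (thiolase), ERG13 (HMG-CoA synthase), HMG1 and HMG2 (HMG-CoA reductases), ERG12 and ERG8 (kinases), MVD1 (decarboxylase), IDI1 (isomerase) and ERG20 (farnesyl diphosphate synthase). Their mean changes lay between -0.08 for HMG1 and 0.33 for MVD1. MVD1 had changes of 0.47, 0.16 and 0.34 in HS959, S96 and SEG8, and its adjusted p was 0.0552. MVD1 was called with scaling to the median of each array (0.34, adjusted p = 0.0439), which makes 1 of 9 mevalonate-step genes. The pheromone-response marker AGA1 (YNR044W) carries the systematic name adjacent to that of MVD1 (YNR043W) and rose by 2.65. A relation between these 2 changes was not tested. The mean changes of ERG9 (squalene synthase), ERG1 (squalene epoxidase) and ERG7 (lanosterol synthase) were -0.05, -0.05 and -0.19. A p that misses the threshold does not show that these genes did not change.

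**Figure D1:**
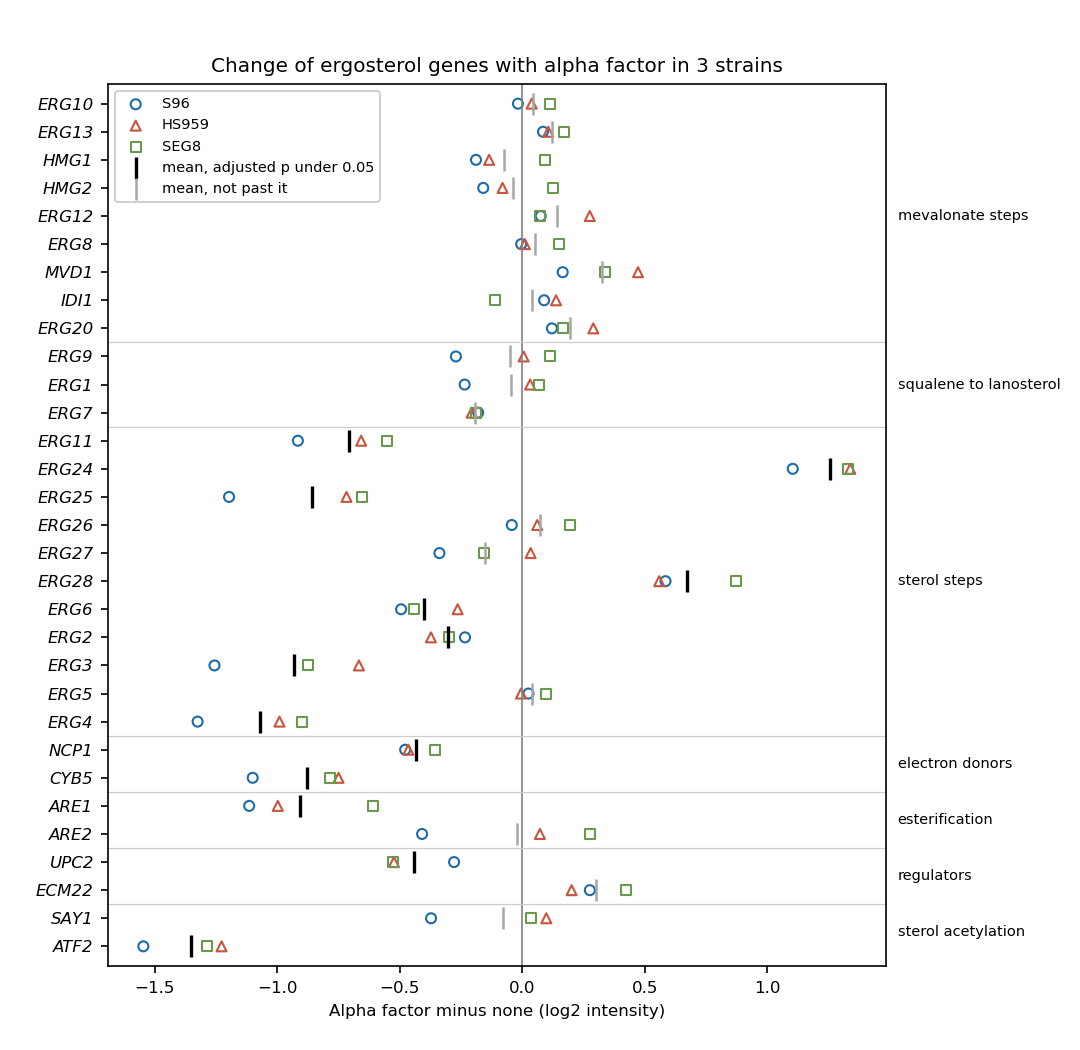
Change with alpha factor, in log2 intensity (alpha factor minus none, x axis), of each of the 31 genes (rows, grouped by role) in S96 (circles), HS959 (triangles) and SEG8 (squares), with the mean as a vertical bar that is black where the adjusted p was under 0.05. ERG24 and ERG28 lie to the right of 0 in all 3 strains, 11 genes with a black bar lie to the left in all 3 strains, and the means of the mevalonate steps lie between -0.08 and 0.33.

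These calls rested on 3 strains. Without S96, 10 of the 13 calls held (ERG2, ERG6 and NCP1 were lost). Without HS959, 6 held (ARE1, ERG11, ERG2, ERG25, ERG6, NCP1 and UPC2 were lost), and without SEG8, 5 held (ERG11, ERG2, ERG25, ERG28, ERG3, ERG6, NCP1 and UPC2 were lost). ERG24, ERG4, ATF2 and CYB5 were called in each of these fits, and every called gene kept its direction in them. The call of ERG2 was also lost with scaling to the median of each array (adjusted p = 0.0539) and with normexp background correction (adjusted p = 0.139).

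The second comparison was between the parental lines HS959 and S96, over both conditions in the same fit. HS959 had more signal for 5 of 31 genes (16.1%, against 6.72% of 6250 genes tested) and less for 2 (6.45%, against 13.9%). Either direction was called for 7 of 31 genes, beside 1288 of 6250 genes tested (20.6%). The split of all genes between higher and lower depended on the normalization, as given below. The median difference over the 31 genes was 0.09, beside -0.09 over all genes. Each gene was read by 1 probe, so a sequence difference between the strains at the probe and a difference in RNA level cannot be told apart.

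The regulators stood out on the lower side. UPC2 levels in HS959 were -4.15 with and -3.63 without alpha factor, against -2.81 and -2.53 in S96. The difference was -1.22 (SE 0.11, adjusted p = 0.00538), so S96 had 2.33-fold more signal. ECM22 levels in HS959 were -2.39 with and -2.59 without alpha factor, against -1.64 and -1.92 in S96. The difference was -0.71 (SE 0.10, adjusted p = 0.0158). For both regulators the HS959 arrays lay below the S96 arrays without overlap.

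Enzymes of several steps were higher in HS959. HMG1 (YML075C, chromosome XIII), an HMG-CoA reductase at the step that limits the pathway's rate, had levels of 0.41 with and 0.55 without alpha factor in HS959, against -0.63 and -0.44 in S96. The difference was 1.01 (SE 0.11, adjusted p = 0.00885), while its paralog HMG2 had a difference of -0.11 (adjusted p = 0.528). ERG7 (YHR072W, chromosome VIII) had levels of 0.52 and 0.72 in HS959, against -0.01 and 0.17 in S96, with and without alpha factor in that order. The difference of 0.54 (SE 0.09) had an adjusted p of 0.0209 and was not called when the SEG8 arrays were left out of the fit.

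The remaining differences lay in late steps and in an electron donor. ERG28 levels in HS959 were 2.07 with and 1.52 without alpha factor, against 1.09 and 0.51 in S96, a difference of 1.00 (SE 0.12, adjusted p = 0.0101). ERG5 (YMR015C, chromosome XIII), a cytochrome P450 that desaturates the sterol side chain, had levels of 1.79 with and 1.79 without alpha factor in HS959, against 1.08 and 1.06 in S96. The difference was 0.72 (SE 0.09, adjusted p = 0.0114). For ERG5, ERG7, ERG28 and HMG1 the parents did not overlap. CYB5 levels in HS959 were 0.59 with and 1.34 without alpha factor, against -0.71 and 0.39 in S96. The difference was 1.13 (SE 0.13, adjusted p = 0.00885), and the HS959 arrays again lay above both S96 arrays.

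The esterification genes were near the threshold in opposite directions of value. ARE2 differed by 0.76 (adjusted p = 0.0524) and ARE1 by -0.55 (adjusted p = 0.0677), and the kinase gene ERG8 differed by 0.39 (adjusted p = 0.0557). ARE2 and ERG8 were called under quantile normalization and under scaling to the median. Quantile normalization moved the median difference of all genes by 0.13, to 0.04, and with it the split of called genes was 705 higher and 606 lower in place of 420 and 868. Under it all 7 called genes kept their call and direction. The other genes had differences between -0.31 for ATF2 and 0.30 for ERG25.

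**Figure D2:**
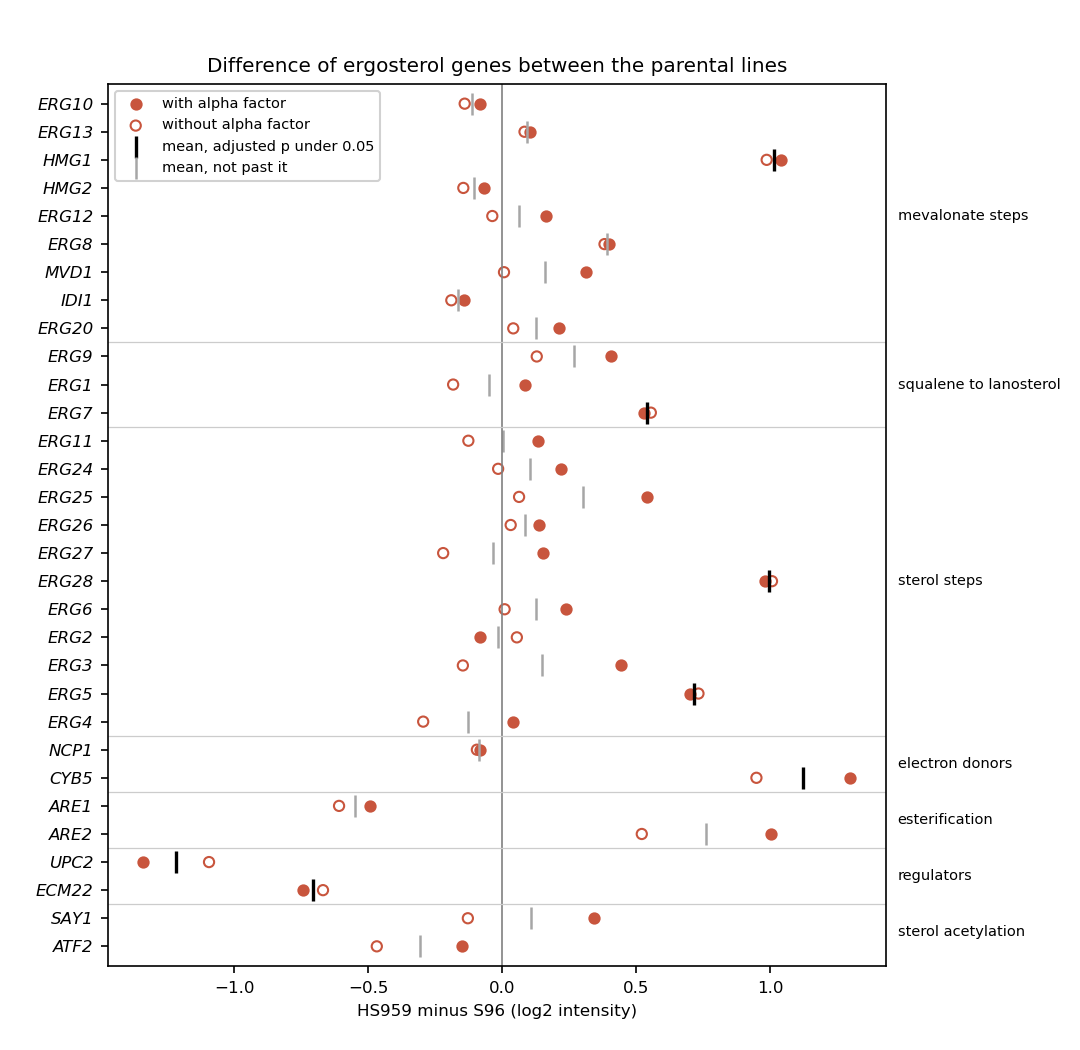
Difference HS959 minus S96 in log2 intensity (x axis) for each of the 31 genes (rows, grouped by role), with alpha factor (filled circles) and without (open circles), with the mean as a vertical bar that is black where the adjusted p was under 0.05. HMG1, ERG28 and CYB5 lie at 0.95 or above and UPC2 lies below -1 in both conditions.

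The third comparison asked which of these genes differed among the 43 treated segregants by more than the noise of the 6 paired arrays, with a one-sided F test. Of 31 genes, 11 varied (35.5%, against 30.7% of 6228 genes tested): HMG1, ERG12, ERG8, ERG7, ERG28, ERG2, CYB5, ARE2, UPC2, ECM22 and ATF2. Their share lay near that of all genes. The median SD over segregants was 0.33 for the 31 genes and 0.29 over all genes tested, and the median noise SD was 0.11 and 0.12. The count rested on the noise estimate, the residual after strain and treatment were fitted. Each strain's pair shared a slide, so this residual leaves out differences between slides, and it holds differences in response between strains. ERG3, with an SD of 0.39 and a noise SD of 0.17, was not called, while ERG8, with 0.29 and 0.10, was. The count was 12 without S96, 1 (CYB5) without HS959 and 0 without SEG8, where 27.3%, 11.6% and 5.56% of all genes varied. Without SEG8, 17 of the 31 had an unadjusted p under 0.05. With slide means removed it was 8 (17.8% of all genes then varied, and ARE2, ATF2 and ERG8 were lost). A slide effect was called for 8 of the 31 genes (25.8%), against 48.1% of all genes tested.

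CYB5 had the largest SD, 0.70 (adjusted p = 0.0154). Its segregant levels ran between -1.02 (SEG36) and 1.24 (SEG6) with a median of -0.21, against 0.59 in treated HS959 and -0.71 in treated S96. Of the 43 segregants, 13 lay above both parents and 10 below both. ARE2 (YNR019W, chromosome XIV) had an SD of 0.62 (adjusted p = 0.0391), with levels between -2.32 (SEG9) and 0.70 (SEG21), a median of -1.71, and -1.53 in treated HS959 and -2.53 in treated S96. SEG21 stood apart, the next segregant being SEG35 at -0.44, and 21 segregants were above both parents and 0 below both.

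ERG28 had an SD of 0.51 (adjusted p = 0.025), with segregant levels between 0.46 (SEG45) and 2.54 (SEG3), a median of 1.45, and 2.07 in treated HS959 and 1.09 in treated S96. Most segregants, 29 of 43, lay between the parents. ERG12 (YMR208W, chromosome XIII), the mevalonate kinase gene, had an SD of 0.50 (adjusted p = 0.0202), although its parents were close, at -0.27 in treated HS959 and -0.43 in treated S96. Its segregants ran between -1.92 (SEG36) and 0.25 (SEG22) with a median of -0.73, and 10 lay above and 30 below both parents. ERG12 was among the genes with a slide effect (adjusted p = 0.00179), and it was still called with slide means removed.

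UPC2 had an SD of 0.45 (adjusted p = 0.0265) and an uneven spread around the parents. Its segregant levels ran between -5.42 (SEG40) and -2.98 (SEG2) with a median of -4.17, against -4.15 in treated HS959 and -2.81 in treated S96. No segregant reached S96: 0 were above both parents, 22 were below both, and SEG2 and SEG3 were the highest. ECM22 differed from this, with 16 segregants above both parents and 1 below both. HMG1 had an SD of 0.45 (adjusted p = 0.0277), with segregant levels between -0.70 (SEG46) and 0.87 (SEG35), a median of -0.39, and 0.41 in treated HS959 and -0.63 in treated S96. Of its segregants 34 lay between the parents.

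The other genes had SDs between 0.16 for ERG1 and 0.43 for ATF2. ERG5 had 0 segregants above HS959, its higher parent, and 19 below both parents, while ERG27, the reductase of the demethylation complex, had 24 above both. Across the 31 genes a median of 29 of 43 segregants lay outside the range of the treated parents, the same as the median of 29 over all genes tested. SEG45 was the lowest segregant for 7 of the 31 genes, and SEG3 and SEG44 were the highest for 5 each. Such extremes were not counted over all genes, so these counts have no share over all genes beside them.

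**Figure D3:**
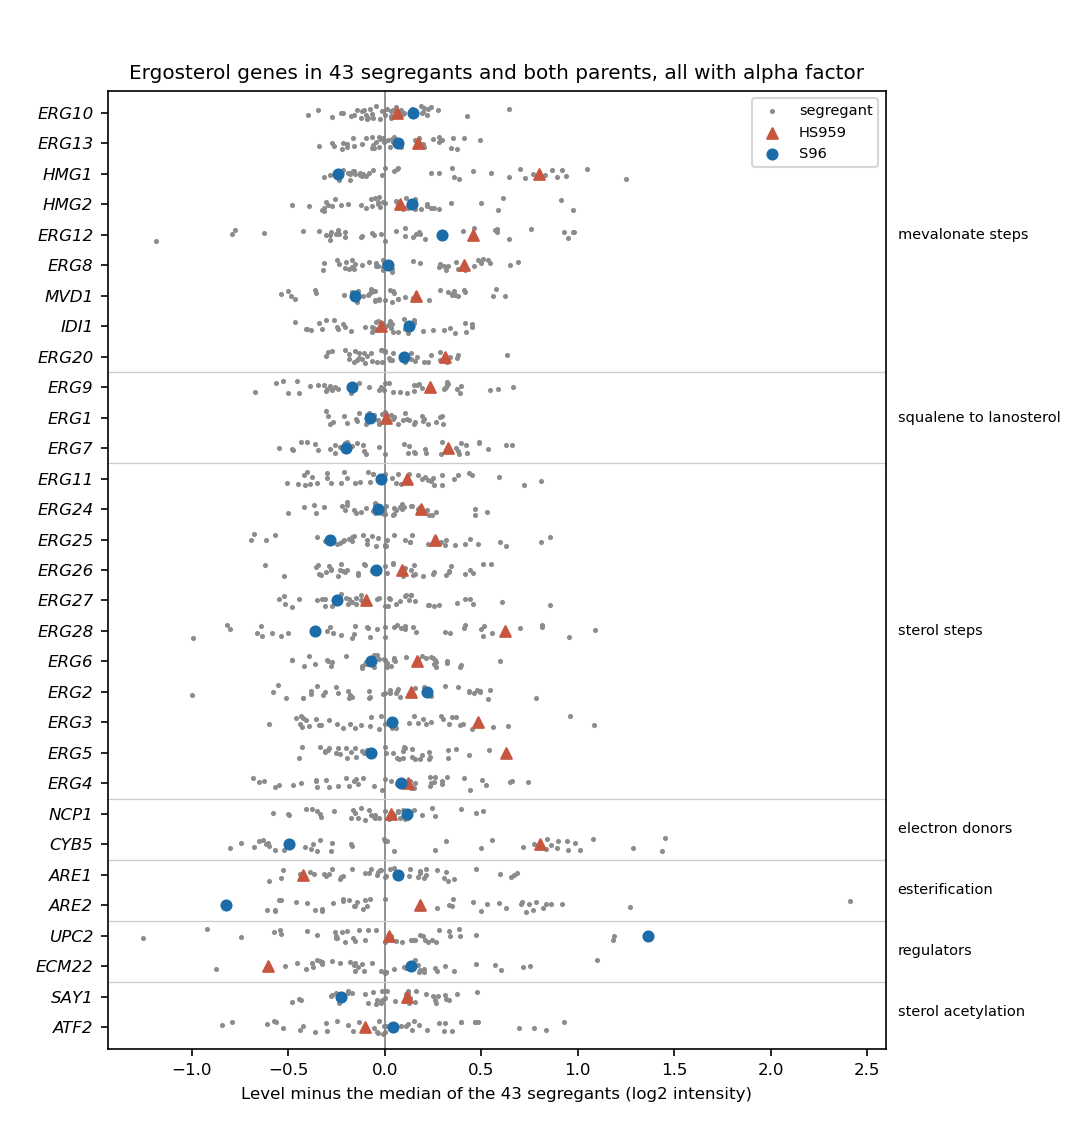
Level of each of the 31 genes (rows, grouped by role) in the 43 treated segregants (grey points), treated HS959 (triangles) and treated S96 (circles), in log2 intensity relative to the median of the segregants (x axis). CYB5, ARE2, ERG28 and ERG12 spread widest, SEG21 lies far to the right for ARE2, and S96 lies to the right of every segregant for UPC2.

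HMG1 and CYB5 were each better described by a lower and an upper group of segregants than by 1 group, which did not hold for the other 29 genes. Such groups were not sought over all genes, so HMG1 and CYB5 have no share over all genes beside them. A mixture of 2 normal distributions was taken as a better description where it gained more than 10 in the Bayesian information criterion. The gain was 22.04 for HMG1, with 25 segregants averaging -0.52 and 18 averaging 0.29, and 13.9 for CYB5, with 25 averaging -0.59 and 18 averaging 0.69. ERG8 came just under the limit with a gain of 9.0. For HMG1 the highest of the lower group was at -0.32 and the lowest of the upper group at -0.15. For CYB5 these were at 0.05 and 0.10, a gap of 0.056 that is under its noise SD of 0.13, so the CYB5 groups were not separated at their border. The HMG1 and CYB5 groups were nearly the same segregants: 16 were in both upper groups, 23 in both lower groups, SEG14 and SEG41 were upper for HMG1 and lower for CYB5, and SEG9 and SEG45 were the reverse.

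These groups went with the signals of HAP1 and CYC1, in the opposite direction for HAP1 and in the same direction for CYC1. HAP1 lies on chromosome XII and encodes the heme-dependent activator, and CYC1 is the cytochrome c gene that Hap1 is known to activate. HAP1 too was read by 1 probe, so a sequence difference at the probe and a difference in RNA level cannot be told apart. HAP1 levels were -1.03 with and -1.01 without alpha factor in HS959, against -0.31 and -0.23 in S96, a difference of -0.76 (SE 0.09, adjusted p = 0.0105). CYC1 levels were 2.24 with and 2.52 without alpha factor in HS959, against -0.28 and 1.05 in S96, a difference of 1.99 (SE 0.33, adjusted p = 0.0206). Both genes also had 2 groups of segregants: 16 with lower HAP1 signal (mean -1.18) and 27 with higher (mean -0.13), and 16 with higher CYC1 signal (mean 1.92) and 27 with lower (mean -0.54). The 16 segregants with lower HAP1 signal were the 16 with higher CYC1 signal. All 16 were in the upper HMG1 group, 15 of them were in the upper CYB5 group, and the other 2 upper HMG1 segregants, SEG41 and SEG42, were in the lower CYC1 group. SEG41 had a CYC1 level of -2.10, but SEG42 was at 1.27, the top of that group, beside 1.50 for the lowest of the upper group. SEG42 was at -0.41 for HAP1, and the genes of chromosome XII, which carries HAP1, were 0.81 higher in SEG42 at the median; the part of that shift in its grouping was not tested. The groups were read from the values themselves, so no test of their difference was made. Segregants with lower HAP1 signal were found on each of the 6 slides, 2 or 3 per slide.

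**Figure D4:**
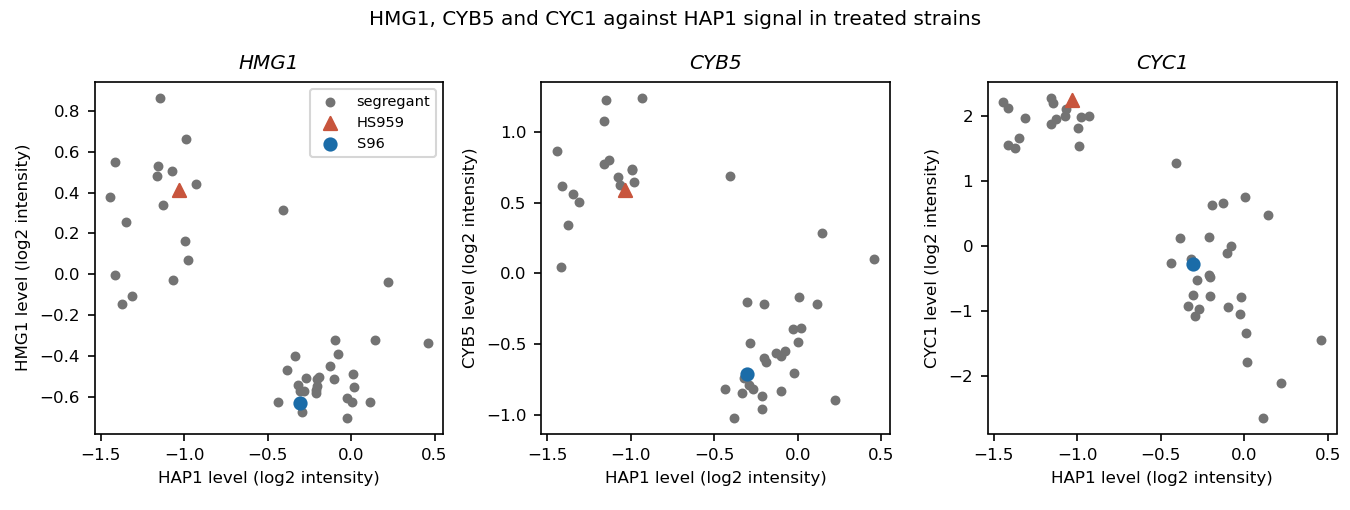
Levels of HMG1, CYB5 and CYC1 (y axes, one panel each) against HAP1 (x axis), all in log2 intensity relative to the 75th percentile of the array, in 43 treated segregants (grey), treated HS959 (triangle) and treated S96 (circle). The 16 segregants with lower HAP1 signal lie with HS959 at high CYC1 and high HMG1, and most of the other 27 lie with S96.

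Within the groups, HMG1, CYB5, HAP1 and CYC1 were correlated with every other gene (256 relations, 100000 permutations each, two-sided, adjusted over all of them). By Pearson's r 15 passed, and 2 of these passed by Spearman's rho as well. Both were in the 27 segregants with lower CYC1 signal: CYC1 with ERG1 (r = -0.70, adjusted p = 0.0115; rho = -0.69, adjusted p = 0.0179) and CYC1 with ERG4 (r = 0.64, adjusted p = 0.0171; rho = 0.68, adjusted p = 0.0179). Without the 2 segregants farthest from the median CYC1 level, r was -0.71 and 0.59. Of HMG1's relations 0 of 32 passed in its lower group and 2 of 32 in its upper group, with ERG25 (r = 0.76, adjusted p = 0.0224; rho = 0.69, adjusted p = 0.0555) and CYB5 (r = 0.63, adjusted p = 0.0459; rho = 0.68, adjusted p = 0.0607). Without the 2 farthest segregants these r were 0.71 and 0.57. Of CYB5's relations 2 of 32 passed in its lower group, both negative, and 4 of 32 in its upper group, all positive. In the upper CYB5 group r with HMG1 was 0.80 (adjusted p = 0.0115), and rho was 0.70 (adjusted p = 0.0555). Without the 2 segregants farthest from the median CYB5 level, this r was 0.80.

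The remaining 29 genes were compared with each other over the 43 treated segregants, in 406 pairs. By permutation test 205 pairs were called, 179 positive and 26 negative, and the median r was 0.27, beside 0.02 over all 19378425 pairs of genes tested. Pairs of all genes were not tested by permutation, so the count of 205 has no share over all genes beside it. Within slides 208 pairs were called. Within the groups of lower and higher HAP1 signal, an alternative added after seeing the data, 95 pairs were called, 91 positive and 4 negative. All genes of a segregant were read from 1 array, so they share its scaling and its quality.

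Of the 5 tightest pairs, 3 joined genes of the mevalonate steps. ERG10 and ERG20 had r = 0.87 and rho = 0.85, ERG20 and ERG26 had r = 0.86 and rho = 0.84, and ERG10 and ERG13 had r = 0.86 and rho = 0.85. ERG13 and ERG20 had r = 0.85 and rho = 0.87, and ERG11 and ERG25 had r = 0.84 and rho = 0.89. Each of these 5 pairs had a permutation p of 1e-05, the smallest the permutations can give, for r and for rho, with adjusted p of 5.72e-05 for r and 5.49e-05 for rho. Without the 2 segregants farthest from the median, r was 0.84, 0.85, 0.86, 0.84 and 0.85 in the same order, and within slides it was 0.87, 0.86, 0.86, 0.87 and 0.85. All 5 were called within the HAP1 groups too. The enzymes of ERG11 and ERG25 act just before and just after Erg24. This pair had r = 0.65 among segregants with lower HAP1 signal and 0.88 among those with higher. In the same order r was 0.74 and 0.78 for ERG10 and ERG20, and 0.58 and 0.65 for ERG20 and ERG26. For ERG10 and ERG13 it was 0.75 and 0.70, and for ERG13 and ERG20 0.53 and 0.71. In these other pairs both values lay below r over all segregants.

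The most negative pairs involved ECM22, ARE1 and HMG2. MVD1 and ECM22 had r = -0.56 (adjusted p = 0.000306) and rho = -0.54 (adjusted p = 0.000625). ERG12 and ARE1 had r = -0.53 (adjusted p = 0.00109) and rho = -0.39 (adjusted p = 0.0233). HMG2 and MVD1 had r = -0.53 (adjusted p = 0.000768) and rho = -0.55 (adjusted p = 0.000534). Without the 2 farthest segregants r was -0.52, -0.49 and -0.50 for these pairs, and within slides it was -0.49, -0.46 and -0.66. Within the HAP1 groups r was -0.43 (adjusted p = 0.0265) for MVD1 and ECM22, which was still called. There it was -0.37 (adjusted p = 0.0597) for ERG12 and ARE1 and -0.22 (adjusted p = 0.309) for HMG2 and MVD1, which were not.

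By role, pairs within the mevalonate and squalene steps had a median r of 0.49 (32 of 55 called positive, 5 negative), and pairs within the sterol steps also had 0.49 (42 of 55 positive, 0 negative). UPC2 showed little relation to the 23 enzymes compared, with a median r of -0.04 and 1 pair called. ECM22 had a median r of -0.32 with those enzymes, with 11 pairs called negative and 1 called positive. The positive pair was with HMG2 (r = 0.66), which lies on the same chromosome. In SEG9 and SEG42 the genes of that chromosome were 0.79 and 0.81 higher at the median. These segregants ranked 1 and 3 for HMG2 and 1 and 2 for ECM22, and r of this pair without them is not given here. Of the 28 pairs of HMG2, 8 were called negative and 2 positive, with a median r of -0.21. All these counts are over the 43 segregants together. Within the HAP1 groups 4 of all 406 pairs were called negative, in place of 26, so most of the negative calls of ECM22 and HMG2 did not hold there.

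**Figure D5:**
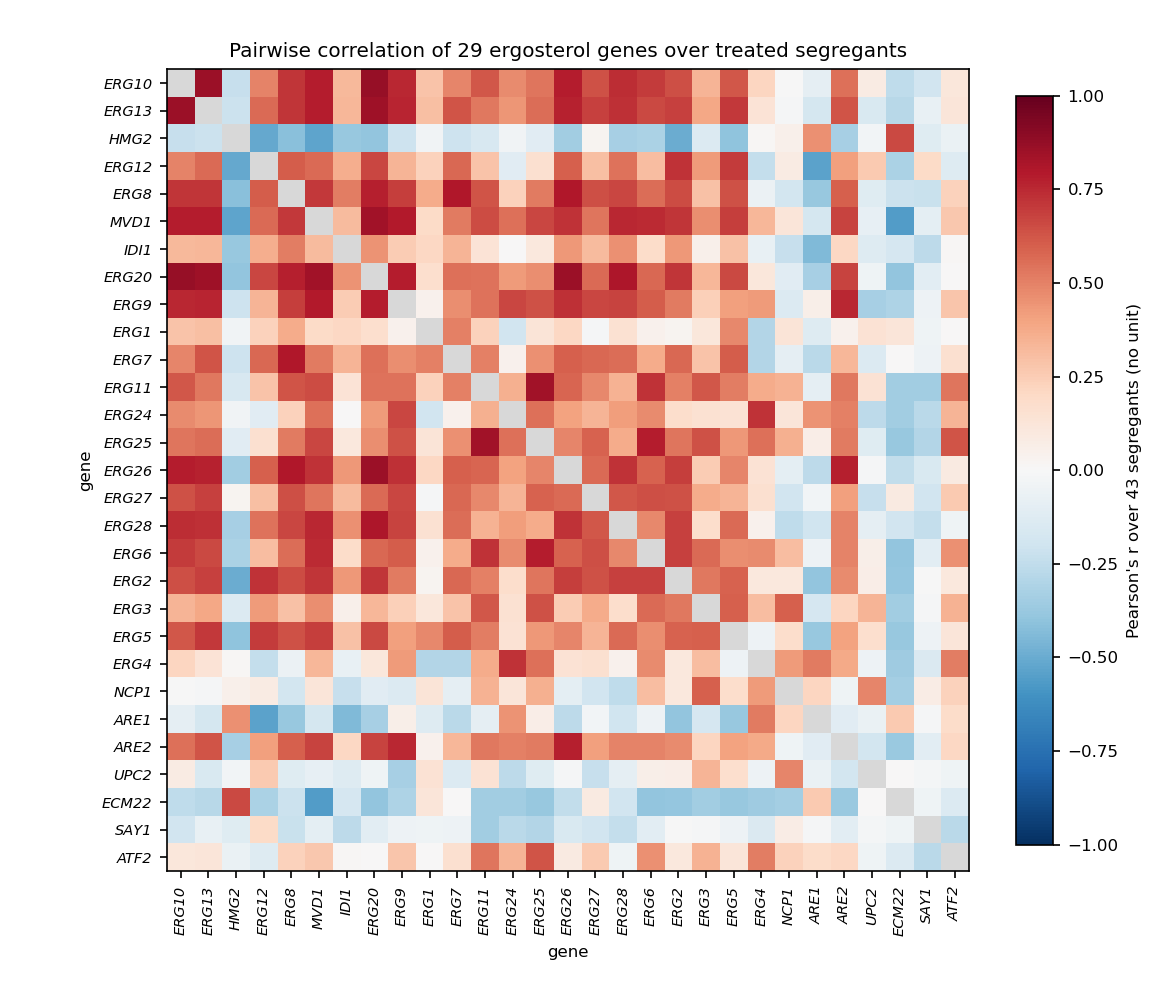
Pearson's r over 43 treated segregants (colour, from -1 in blue to 1 in red) for each pair of the 29 genes whose levels did not fall into 2 groups, with genes in the order of the pathway on both axes. Most early and sterol-step enzymes form a red block with values up to 0.87, HMG2 and ECM22 have medians of -0.21 and -0.29 over their pairs, and UPC2 is pale.

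HMG2, ERG27, ERG3 and ECM22 lie on chromosome XII, where SEG42 and SEG9 differed from all other segregants. The median of 493 genes of that chromosome was 0.81 above the segregant median in SEG42 and 0.79 above in SEG9, against -0.15 to 0.06 in the other 41. In SEG42, HMG2 was 0.61, ERG27 0.86, ERG3 1.09 and ECM22 0.76 above the segregant median. In SEG9, HMG2 was 0.98, ERG27 0.61, ERG3 0.22 and ECM22 1.10 above it. ERG3 in SEG9 was thus the exception, ranking 15 of 43, while the other values ranked between 1 and 3. Without both segregants 211 of 406 pairs were called, and 10 of 31 genes varied, beside 27.8% of all genes.

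Genes around the pathway were counted in lists of sterol transport and turnover (28 genes), branches from the mevalonate pathway (16) and heme-related genes (18). With alpha factor 4 of 28 sterol transport and turnover genes rose and 6 fell, beside 15% and 20.5% of all genes tested, so the 10 called of 28 lay at the share of all genes, 35.6%. HES1, an oxysterol-binding protein gene, had levels of -1.01, -1.75 and -1.10 in treated HS959, S96 and SEG8, against -5.41, -4.40 and -4.82 untreated, a rise of 3.59 (adjusted p = 0.00447) with no overlap. Its relative OSH6 rose by 0.71 (adjusted p = 0.00927), while YEH1, a steryl ester hydrolase gene, fell by 1.17 (adjusted p = 0.00401) and MOT3, a repressor of hypoxic and sterol genes, fell by 0.73 (adjusted p = 0.00622). Between parents 3 of these 28 were higher and 5 lower in HS959, led by SUT1, a regulator of sterol uptake, at -1.33 (adjusted p = 0.0114), then YEH1 at 0.79, NSG2 at 0.71 and AUS1, a sterol importer, at -0.65. The shares of all genes for the parents were 6.72% higher and 13.9% lower. Among segregants 13 of 28 varied, beside 30.7% of all genes.

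Of the 16 branch genes 1 rose and 5 fell with alpha factor, beside 15% and 20.5% of all genes. STE14, a methyltransferase in the maturation of a-factor and other prenylated proteins, rose by 1.10 (adjusted p = 0.00366). RCE1, a protease of the same maturation route, fell by 1.07 (adjusted p = 0.00299), ALG7, the first enzyme of N-glycan assembly on dolichol, fell by 0.94 (adjusted p = 0.00318), and SRT1, a dolichol synthesis gene, fell by 0.53 (adjusted p = 0.0388). Between parents 0 of 16 were higher and 5 lower in HS959, led by SRT1 at -0.97, ALG7 at -0.77, CDC43 at -0.64 and SEC59 at -0.53, beside 6.72% and 13.9% of all genes, and 3 were called under quantile normalization. Among segregants 3 of 16 varied, beside 30.7% of all genes.

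Of the 18 heme-related genes 1 rose and 4 fell with alpha factor, beside 15% and 20.5% of all genes. CYC1 fell by 1.05 (adjusted p = 0.0408), with changes of -0.28, -1.34 and -1.54 in HS959, S96 and SEG8, while HMX1, the heme oxygenase gene, rose by 1.01 (adjusted p = 0.0149). HEM1 and HEM12, of heme synthesis, fell by 0.37 and 0.36 (adjusted p = 0.0238 and 0.0369). HAP1 had a change of -0.08 (adjusted p = 0.463). Between parents 5 of 18 were higher and 5 lower in HS959, with YHB1, the flavohemoglobin gene, at -3.78 (adjusted p = 0.00171), HMX1 at 2.04, CYC1 at 1.99 and CYT1, cytochrome c1, at 1.39. Of all genes 6.72% were higher and 13.9% lower. Among segregants 10 of 18 varied, beside 30.7% of all genes.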

How the data were processed

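RNA of 48 samples was hybridised to 48 arrays. The deposited files give processed spot intensity, per the file headers background-subtracted by Agilent Feature Extraction 10.5.1.1 on design 016322 annotated on sacCer1; the submitters' processing notes name version 9.1. The value table of the authors was identical to this intensity in 626304 of 626304 cells. Spot flags for outlier, saturation and signal well above background are other columns, per the file headers. Of 13048 spots, 536 control spots were dropped, as were 0 to 97 outlier spots on an array; 0 gene spots were saturated. Log2 intensity minus the 75th percentile of each array was averaged over the 2 spots of a probe, whose median SD was 0.039. Of 6256 names, 5756 matched the R64 gene table and 500 did not; the builds differ, so no coordinates are given, and no sequences of these genes were used here.

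Groups came from the labels: treated and untreated parents (2 each), 43 treated segregants and 1 untreated segregant. Strain was the pairing, because HS959, S96 and SEG8 each appear in both conditions in the labels; over genes, r between the changes of any 2 strains was 0.80 to 0.85. limma 3.58.1 in R 4.3.3 was fitted with strain and treatment to 6 arrays (2 residual and 2.62 prior degrees of freedom), over the 6250 genes with signal well above background on 2 or more of the 6. The parental difference was taken to be shared by both conditions. Variance over segregants was tested over the 6228 genes with such signal on 22 or more of 43, one-sided, against the moderated residual variance. Calls use a Benjamini-Hochberg adjusted p under 0.05. Mixtures were fitted with mclust 6.1.1; correlations used Python 3.11.15, numpy 2.4.6, scipy 1.17.1 and pandas 2.3.3, and figures matplotlib 3.10.9. Scripts were tested on simulated data.

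Alternatives were other scaling, background correction (normexp with offset 50 on the median spot signal), filters, the series matrix, leaving out each strain or named segregants, slide means removed, and no strain term. Values are given for every array for genes called in either 6-array comparison and for the 6 largest SDs, for at most 4 called genes of each other list and comparison, for HAP1 and CYC1, and for the 5 highest and 3 lowest pair correlations. The 31 genes and all lists were chosen with earlier results of these data known.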

Additional observations from a re-analysis of the deposited data

How the results depend on the processing

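The count of risen genes with alpha factor was 2, 4 with scaling to the median of each array, 1 to 2 when each strain was left out in turn, and 1 with no strain term, that is with no replicate block; the count of fallen genes was 11, 4 to 8 with strains left out, and 4 with no replicate block. Of the 13 calls, 5 held with no strain term, and ATF2, ERG24 and ERG4 were called under all 11 settings run for alpha factor. The parental calls CYB5, ECM22, ERG28, ERG5, HMG1 and UPC2 held under all 8 settings run for that comparison. The number of genes varying over segregants was 0 to 12 with strains left out of the noise estimate and 16 under scaling to the median, where 5.56% to 27.3% and 29.6% of all genes varied. Over all segregants 205 pairs were called, against 95 within the HAP1 groups (added after seeing the data), and 3 of the 16 branch genes differed between parents under quantile normalization, against 5. ERG27 was called only with normexp. Values that changed sign, none called in either setting, were as follows. For alpha factor, quantile normalization gave ARE2 0.0472, ERG26 -0.0074, ERG5 -0.0184 and IDI1 -0.0086, and normexp gave ERG10 -0.0847, HMG2 0.0265 and IDI1 -0.0359. With each strain left out in turn the changes ranged between -0.169 and 0.174 for ARE2, -0.102 and 0.0492 for ERG1, -0.133 and 0.0593 for ERG9, -0.12 and 0.0226 for HMG2, -0.0119 and 0.113 for IDI1, and -0.169 and 0.0665 for SAY1. For HS959 minus S96, quantile normalization gave ERG1 0.116, ERG10 0.111, ERG2 0.18, ERG27 0.107, ERG4 0.0195 and NCP1 0.0284, scaling to the median gave ERG2 0.0183, and normexp gave ERG10 0.0849 and ERG9 -0.0755, where ERG9 was 0.267 in the chosen setting. The cause of these changes was not tested. The median raw signal was used in normexp because the files used here lack the mean. All 31 genes were well above background on all 48 arrays.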
